A study of Homo sapiens with 9 samples.

Results

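The genes that switch eIF2 alpha on and off were examined in OVCAR3, an established line of human ovarian cancer cells, after knockdown of GPX3. The set held 9 of the 58735 genes in the count table, picked by gene name, with earlier results of these data known. It covers 3 kinases that phosphorylate eIF2 alpha (EIF2AK1, EIF2AK3 and EIF2AK4), the protease OMA1, the phosphatase subunits PPP1R15A and PPP1R15B, the alpha subunit of eIF2 (EIF2S1) and subunits of eIF2B (EIF2B1 and EIF2B5). EIF2AK2, the kinase that responds to double-stranded RNA, was left out of the set and appears only as a comparator. The cells carried a scramble hairpin (genotype WT in the labels) or a GPX3 hairpin numbered 76 or 78 by the authors (genotype GPX3 knock-down). They are called scramble, sh76 and sh78, with 3 replicates of each, and were taken after 72 h in culture in serum-containing medium with bovine insulin. Whether each hairpin line was a pool or a clone is not given in the sources used here. GPX3 encodes a secreted glutathione peroxidase, and the study asked what it does in ovarian cancer cells.

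Translation starts when eIF2, loaded with GTP, brings the initiator tRNA to the ribosome, and eIF2B reloads eIF2 with GTP after each round. Phosphorylation of a serine in the alpha subunit turns eIF2 into an inhibitor of eIF2B, so that general translation falls while a few mRNAs, ATF4 among them, are translated more. This integrated stress response is set by kinases that sense different stresses and is reversed by protein phosphatase 1 (PP1), which PPP1R15A or PPP1R15B directs to eIF2 alpha. The measurements here are of mRNA and hold no value for phosphorylation or translation.

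Libraries held 14652965 to 21327562 counts. The targeted gene GPX3 had 173, 109 and 117 CPM (counts relative to library size, with TMM factors) in scramble replicates 1 to 3. It had 56.8, 55.2 and 55.5 CPM under sh76 and 35.3, 28.4 and 28.3 CPM under sh78. All 6 knockdown libraries lay below the scramble libraries, as the labels state. Epithelial markers were high, with PAX8 at 733 to 1006 CPM and EPCAM at 244 to 323 CPM, and ESR1 was the exception at 0.339 to 1.54 CPM. Of 8 markers of other cell types, CD3E, COL3A1, PDGFRB and PECAM1 had 0 counts in at least 1 library, though COL3A1 reached 2.57 CPM in sh76 replicate 2. PTPRC had 0.275 to 1.29 CPM, CD14 0.643 to 2.06 CPM, VWF 5.37 to 9.82 CPM and COL1A1 25.5 to 44.5 CPM. Nothing in the labels says that replicates came from separate cultures, so p-values measure the spread between these samples, which may be technical. Replicate numbers behaved as shared batches across the groups, and a fit with the number as a block is given beside the members and gene lists whose calls it changes.

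The stretches around the transcription start are shown for EIF2AK3, the member with a called change, and for the phosphatase subunits, which hold motif matches. They come from RefSeq on GRCh38.p14 and run from 250 bases before the start to 50 after it, 5′ to 3′ on the gene's own strand. Capitals mark matches on either strand to the ATF4 composite element TGATGNAA, the cAMP response element TGACGTCA or the antioxidant response element TGACNNNGC. The EIF2AK3 window is chr2:88627415-88627714 on the minus strand, that of PPP1R15A is chr19:48872171-48872470 on the plus strand, and that of PPP1R15B is chr1:204411768-204412067 on the minus strand.
EIF2AK3: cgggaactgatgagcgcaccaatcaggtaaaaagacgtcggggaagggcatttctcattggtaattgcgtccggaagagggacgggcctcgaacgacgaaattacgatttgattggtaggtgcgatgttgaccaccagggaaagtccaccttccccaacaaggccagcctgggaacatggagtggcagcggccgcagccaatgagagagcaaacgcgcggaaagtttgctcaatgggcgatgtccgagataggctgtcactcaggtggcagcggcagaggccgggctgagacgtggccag
PPP1R15A: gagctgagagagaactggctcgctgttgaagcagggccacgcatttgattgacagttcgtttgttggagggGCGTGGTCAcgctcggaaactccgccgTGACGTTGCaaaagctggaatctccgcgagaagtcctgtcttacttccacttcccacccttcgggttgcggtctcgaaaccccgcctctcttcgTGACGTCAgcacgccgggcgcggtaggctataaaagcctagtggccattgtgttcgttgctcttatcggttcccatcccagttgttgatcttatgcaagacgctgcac
PPP1R15B: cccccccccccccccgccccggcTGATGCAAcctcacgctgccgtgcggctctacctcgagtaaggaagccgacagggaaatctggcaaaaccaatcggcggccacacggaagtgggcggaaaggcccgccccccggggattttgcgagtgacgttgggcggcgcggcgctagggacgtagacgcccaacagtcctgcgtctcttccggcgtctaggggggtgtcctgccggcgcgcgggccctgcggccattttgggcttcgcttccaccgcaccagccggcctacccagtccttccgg
The PPP1R15A window held the cAMP response element, at position −58 from the start, and 2 matches to the antioxidant response element that did not overlap it. The PPP1R15B window held an ATF4 composite element at position −227. EIF2AK3 had no match to these letters in its window. Among all 35116 windows in the table, 3.62% held the ATF4 composite element, 1.85% the cAMP response element and 13.3% the antioxidant response element. Of the 8 members found in the table, OMA1 and EIF2B1 each had 1 match, to the antioxidant response element, and EIF2AK4, EIF2S1 and EIF2B5 had none. A match is a description of letters and not of binding.

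All 9 genes were expressed and all passed the count filter, with at least 169 counts in every library. Levels of different genes are compared as FPKM, the deposited measure that divides by both gene length and library size. In scramble cells EIF2AK1 was highest at 45.4 ± 1.45 FPKM (SD, n = 3), followed by PPP1R15B at 27 ± 1.52 FPKM. EIF2B1 at 23.7 ± 0.557 FPKM and EIF2S1 at 23.6 ± 1.81 FPKM overlapped each other. Lower down, PPP1R15A at 8.92 ± 1.42 FPKM overlapped EIF2B5 at 8.13 ± 0.482 FPKM, and EIF2AK4 stood below both at 5.95 ± 0.495 FPKM. That order depends on the gene lengths used, which were 3093, 7188 and 11957 bases. In CPM, which does not divide by length, it was reversed, with scramble means of 27.7 for PPP1R15A, 58.7 for EIF2B5 and 71.5 for EIF2AK4. OMA1 at 3.63 ± 0.171 FPKM and EIF2AK3 at 3.36 ± 0.299 FPKM were lowest and overlapped. By mean, EIF2AK3 stood above OMA1 with sh76 (4.77 and 3.83 FPKM) and with sh78 (3.22 and 3.17 FPKM), as the plot of FPKM shows. EIF2S1 stood above EIF2B1 with sh76 alone (24.3 and 23.4 FPKM), and PPP1R15A stayed above EIF2B5 in each group.

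**Figure D1:**
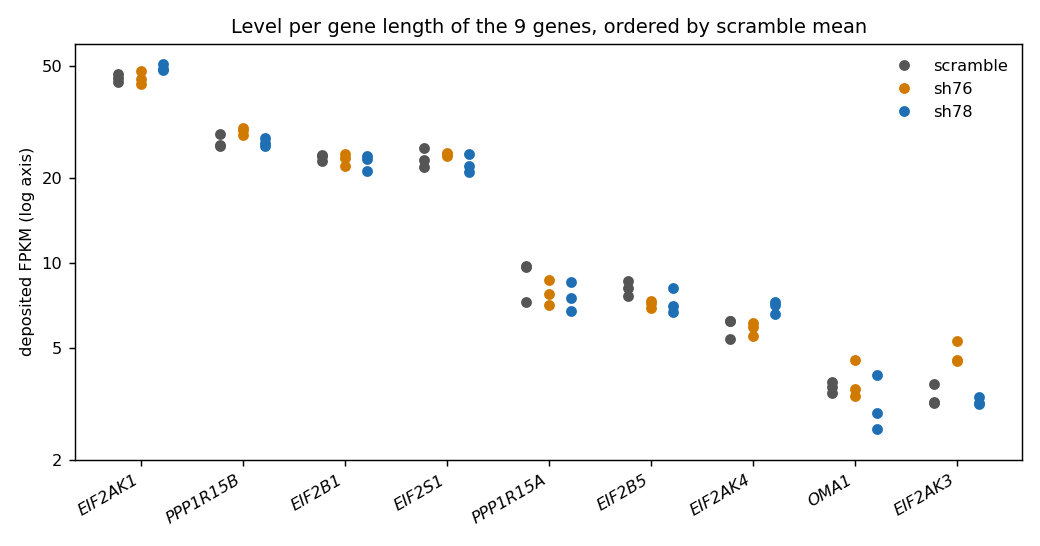
Deposited FPKM on a log axis for each of the 9 genes, ordered by their scramble mean, with 1 point per library and a colour per group. EIF2AK1 lies at 43.4 to 50.8 FPKM in all libraries, and EIF2AK3 has a mean of 4.77 FPKM with sh76 against 3.36 FPKM with scramble.

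Each member was compared between the groups in a fit over all 17023 tested genes. With sh76 against scramble, 1 of the 9 genes (EIF2AK3, higher) was called at an adjusted p under 0.05 by edgeR, where 3.58% of all tested genes were called and 1.43% were called higher. With sh78 against scramble none (0) of the 9 was called, against 4.41% of all genes. In that comparison 2 members had an unadjusted edgeR p under 0.05, as did 2983 of the 17023 tested genes, and DESeq2 also called 0 members. Between the hairpins 1 member was called (EIF2AK3, lower with sh78), against 3.7% of all genes, 1.72% in that direction. No member was called with both hairpins in the same direction, which 1.32% of genes were, and with the replicate block described next it was again none (0), against 8.29% of genes. The median log2 fold change of the members was 0.01 with sh76 and −0.06 with sh78, beside a median of 0.01 over all tested genes in each comparison. Both comparisons share the scramble libraries.

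With the replicate block, 3 members were called with sh76 (20.4% of all genes), 3 with sh78 (19.9%) and 4 between the hairpins (18.3%). Groups of libraries did not overlap for 3 members with sh76 (22.5% of all genes), 2 with sh78 (21.5%) and 4 between the hairpins (21.8%). Among the members not called, the 95% intervals of the log2 fold change ran from −0.45 (PPP1R15A) to 0.43 (OMA1) with sh76. With sh78 they ran from −0.55 (OMA1) to 0.40 (EIF2AK4). Between the hairpins they ran from −0.63 (OMA1) to 0.41 (EIF2AK4). As folds over these comparisons, the lowest bound was 0.646 and the highest was 1.35, so changes beyond these lay outside the intervals. In bulk RNA, fewer cells expressing a gene and less RNA per cell cannot be told apart.

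**Figure D2:**
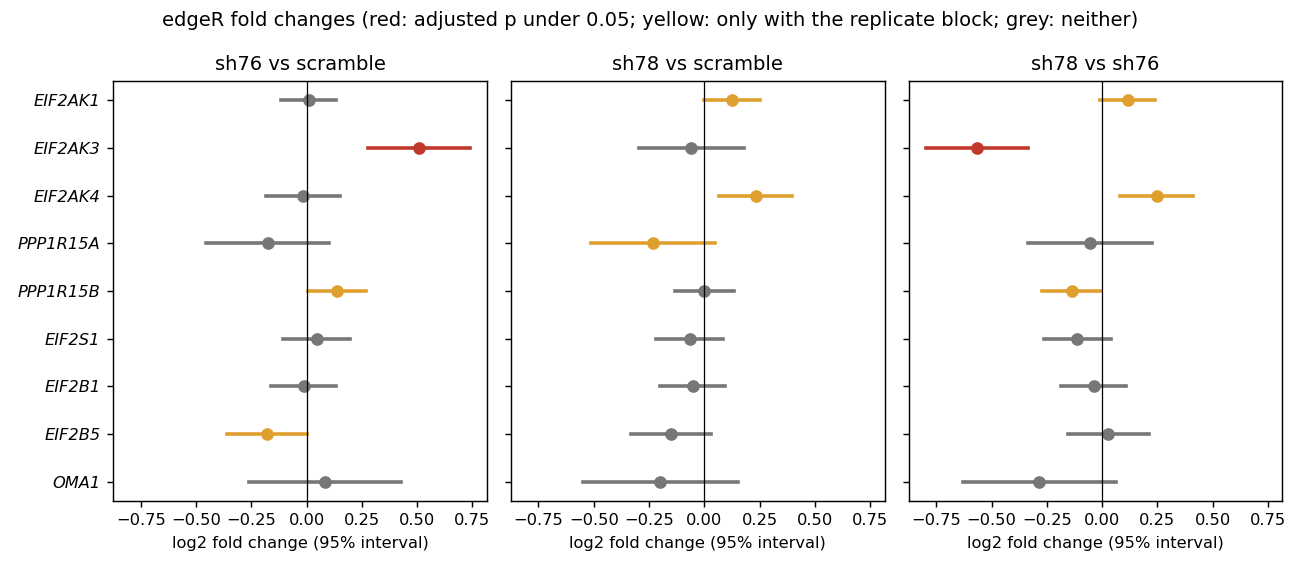
Log2 fold change of each gene with its 95% interval in the 3 comparisons, from edgeR. EIF2AK3 is the gene in red, at 0.51 for sh76 against scramble and −0.57 for sh78 against sh76, and the yellow genes were called only with the replicate block.

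EIF2AK3 encodes PERK, the kinase in the endoplasmic reticulum membrane that is activated by unfolded proteins (ENSG00000172071, chromosome 2, 88556741 to 88627576, minus strand, GRCh38). It had 20.3, 17.5 and 17.3 CPM in scramble replicates 1 to 3, from 316, 299 and 301 counts. With sh76 it had 29.1, 24.6 and 24.8 CPM, from 471, 508 and 520 counts. With sh78 it had 17.4, 17.2 and 18.3 CPM, from 323, 250 and 282 counts. Each sh76 library was above every other library, and the sh78 libraries lay within the scramble range or just under it. EIF2AK3 rose by a log2 fold change of 0.51 with sh76 (SE 0.11, 95% interval 0.28 to 0.74, adjusted p by edgeR 0.0177), which is 1.42-fold. With sh78 the log2 fold change was −0.06 (95% interval −0.29 to 0.18, adjusted p by edgeR 0.853). Between the hairpins it was lower with sh78 by a log2 fold change of −0.57 (SE 0.11, adjusted p by edgeR 0.00941).

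The 3 same-numbered pairs gave log2 ratios of EIF2AK3 of 0.52, 0.49 and 0.52 for sh76 over scramble. Leaving out scramble replicate 2, scramble replicate 3 or sh76 replicate 1 ended the sh76 call, with log2 fold changes of 0.47, 0.46 and 0.43 and adjusted p by edgeR of 0.0864, 0.0829 and 0.0664. The call between the hairpins held in all 9 fits that left out a library, with adjusted p by edgeR from 0.00672 to 0.0437. An antisense gene, AC062029.1, shares 0.699% of the EIF2AK3 exon bases, and the libraries carry no strand. Its level was 3.16 ± 0.205 CPM in scramble cells, 4.33 ± 0.608 CPM under sh76 and 2.92 ± 0.489 CPM under sh78, with 38 to 103 counts in a library, and its part in the EIF2AK3 result was not tested. A second antisense gene, AC104134.1, shares 14.4% of the EIF2AK3 exon bases and had at most 1 count in any library. How reads in shared stretches were counted is not given in the sources used here.

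Across the 9 libraries, the genes with the pattern most like EIF2AK3 by Pearson r of log2 CPM were MPZL2, AC026421.1 and RF00004 (ENSG00000278048). MPZL2, a cell adhesion gene, had an r of 0.976 and stood at 27.9 ± 3 CPM in scramble cells, 40 ± 6.24 CPM under sh76 and 27.1 ± 2.82 CPM under sh78. AC026421.1 had an r of 0.976 from 5 to 21 counts in a library, and RF00004 had an r of 0.969. RF00004 is a small RNA family name that 21 genes of the table carry, so its reads could be shared among copies. These genes were picked for their likeness out of 17023, so the r values are a description.

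EIF2AK1 encodes HRI, a kinase that responds to low heme and to signals from stressed mitochondria (ENSG00000086232, chromosome 7, 6022244 to 6059230, minus strand). It had 253, 246 and 260 CPM in scramble cells, 243, 252 and 270 CPM under sh76, and 275, 271 and 284 CPM under sh78. The sh78 libraries lay above all others by a small margin, and the sh76 and scramble libraries overlapped. The log2 fold change with sh78 was 0.13 (95% interval 0.00057 to 0.25, adjusted p by edgeR 0.283), and with the replicate block it was called (adjusted p by edgeR 0.0269). Between the hairpins the log2 fold change was 0.12, called only with the block (adjusted p by edgeR 0.0436 against 0.352 without it). The gene shares 9.59% of its exon bases with AIMP2 on the opposite strand, which had 30.9 to 36.4 CPM.

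EIF2AK4 encodes GCN2, the kinase that is activated by uncharged tRNA and stalled ribosomes when amino acids run short (ENSG00000128829, chromosome 15, 39934146 to 40035591, plus strand). It had 64.8, 75 and 74.6 CPM in scramble cells and 66.6, 71.8 and 73.7 CPM under sh76. With sh78 it had 79.3, 85.1 and 87.5 CPM, above every library of the other groups. Its sh78 log2 fold change was 0.23 (SE 0.08, 95% interval 0.07 to 0.40, adjusted p by edgeR 0.12), and the block called it (adjusted p by edgeR 0.000724). Against sh76 it was 0.25 (adjusted p by edgeR 0.1), and the same-numbered pairs gave 0.25 each. That difference was also called with the block (adjusted p by edgeR 0.000322).

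The kinases were then set beside each other per gene length, with EIF2AK2 included. EIF2AK1 made up 70.8 ± 0.929% of the summed kinase FPKM in scramble cells, EIF2AK2 14.3 to 15.3%, EIF2AK4 9.27 ± 0.711% and EIF2AK3 5.25 ± 0.537% (SD, n = 3). With sh76 the EIF2AK3 share was 6.61 to 8.27%, against 4.82 to 5.85% with scramble and 4.55 to 4.65% with sh78. The summed FPKM was 64.1 ± 1.54 with scramble, 65.9 ± 2.4 with sh76 and 69.9 ± 1.74 with sh78. EIF2AK1 thus made up most of the summed kinase FPKM in every library, from 67.8 to 71.4%, and EIF2AK3, the kinase that rose with sh76, had the lowest share. These shares depend on the gene lengths used, which were 5550 bases for EIF2AK1, 5434 for EIF2AK3 and 11957 for EIF2AK4. Such a length covers all annotated exons and can exceed that of the expressed transcript. In CPM, which does not divide by length, scramble means were 253 for EIF2AK1, 102 for EIF2AK2, 71.5 for EIF2AK4 and 18.4 for EIF2AK3.

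**Figure D3:**
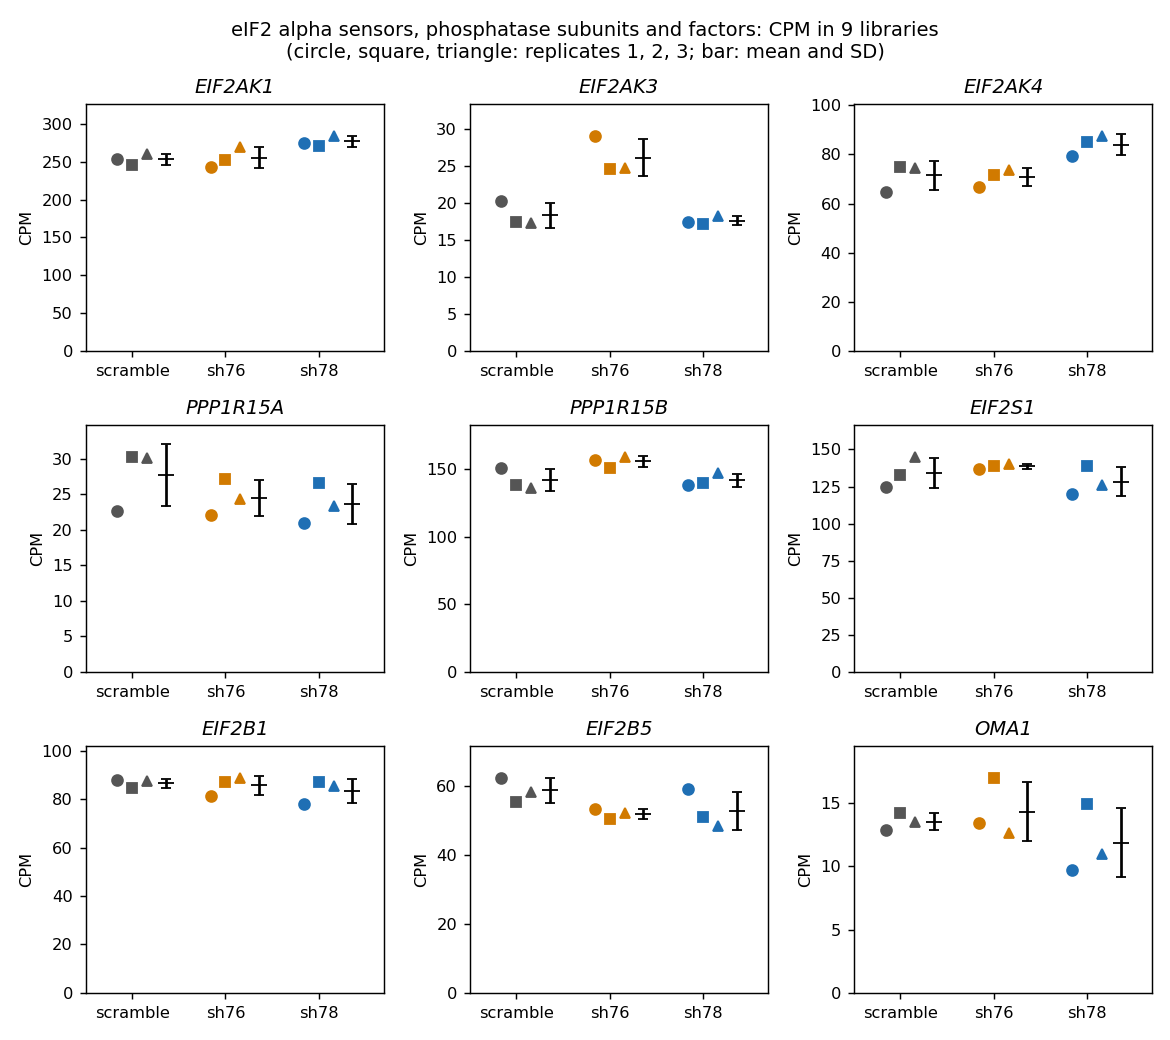
CPM of each of the 9 genes in the 9 libraries, with circles, squares and triangles for replicates 1, 2 and 3 and a bar for the mean and SD. EIF2AK3 stands apart with sh76 at 24.6 to 29.1 CPM, EIF2AK4 is highest with sh78 at 79.3 to 87.5 CPM, and PPP1R15A is lowest in replicate 1 of every group.

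OMA1 is a protease of the mitochondrial inner membrane that cleaves DELE1 on stress, and the released DELE1 activates EIF2AK1 (ENSG00000162600, chromosome 1, 58415384 to 58546802, minus strand). It had 12.9, 14.2 and 13.5 CPM in scramble cells, 13.4, 17 and 12.6 CPM under sh76, and 9.7, 14.9 and 11 CPM under sh78. All 3 groups overlapped. The log2 fold change was 0.08 with sh76 (95% interval −0.26 to 0.43, adjusted p by edgeR 0.849) and −0.20 with sh78 (95% interval −0.55 to 0.15, adjusted p by edgeR 0.604). With 169 to 351 counts in a library it was the least sampled member, and its intervals were the widest. OMA1 shares 6.91% of its exon bases with DAB1 on the same strand, which had 0 to 10 counts in a library. DELE1 itself had 36 to 43.7 CPM and log2 fold changes of −0.17 and −0.11 (adjusted p by edgeR 0.313 and 0.56).

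PPP1R15A encodes GADD34, the phosphatase subunit whose gene is induced during the integrated stress response and which closes the loop by dephosphorylating eIF2 alpha (ENSG00000087074, chromosome 19, 48872392 to 48876057, plus strand). It had 22.7, 30.3 and 30.2 CPM in scramble cells, 22.1, 27.2 and 24.3 CPM under sh76, and 21, 26.6 and 23.4 CPM under sh78. Replicate 1 was the lowest of its group each time, and the groups overlapped because scramble replicate 1 lay among the knockdown libraries. The log2 fold change was −0.18 with sh76 (95% interval −0.45 to 0.10, adjusted p by edgeR 0.53) and −0.23 with sh78 (95% interval −0.51 to 0.05, adjusted p by edgeR 0.4). Without scramble replicate 1 these were −0.30 and −0.36, still not called. Within same-numbered pairs PPP1R15A had log2 ratios of −0.04, −0.16 and −0.31 for sh76 over scramble. For sh78 over scramble they were −0.11, −0.19 and −0.37. The block called it with sh78 (log2 fold change −0.23, adjusted p by edgeR 0.0412) and not with sh76 (adjusted p by edgeR 0.112).

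PPP1R15B encodes CReP, the phosphatase subunit that is present without stress (ENSG00000158615, chromosome 1, 204403387 to 204411791, minus strand). It had 151, 138 and 136 CPM in scramble cells, 157, 151 and 159 CPM under sh76, and 138, 140 and 147 CPM under sh78. The sh76 libraries lay above the scramble libraries, narrowly so for scramble replicate 1, and the sh78 libraries lay within the scramble range. The log2 fold change was 0.14 with sh76 (95% interval 0.0044 to 0.27, adjusted p by edgeR 0.269) and −0.00048 with sh78 (95% interval −0.13 to 0.13, adjusted p by edgeR 0.999). The block called the sh76 value (adjusted p by edgeR 0.0287) and the difference of −0.14 between the hairpins (adjusted p by edgeR 0.0311 against 0.286 without it). Per gene length PPP1R15B exceeded PPP1R15A in every library, by 2.66 to 3.94 times with scramble, 3.3 to 4.21 times with sh76 and 3.12 to 3.88 times with sh78, and these ranges overlapped.

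EIF2S1 encodes the alpha subunit of eIF2, which carries the phosphorylated serine (ENSG00000134001, chromosome 14, 67359997 to 67386516, plus strand). It had 125, 133 and 145 CPM in scramble cells, 137, 139 and 140 CPM under sh76, and 120, 139 and 126 CPM under sh78. The groups overlapped, and the log2 fold changes were 0.05 (95% interval −0.11 to 0.20) and −0.07 (95% interval −0.22 to 0.09), with adjusted p by edgeR of 0.805 and 0.705. It shares 4.76% of its exon bases with ATP6V1D on the opposite strand.

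EIF2B1 encodes the alpha subunit of eIF2B, a regulatory subunit through which phosphorylated eIF2 is sensed (ENSG00000111361, chromosome 12, 123620406 to 123633766, minus strand). It had 87.7, 84.4 and 87.4 CPM in scramble cells, 81.3, 87 and 88.8 CPM under sh76, and 77.8, 87.1 and 85.5 CPM under sh78. Its log2 fold changes were −0.01 and −0.05 (adjusted p by edgeR 0.951 and 0.774), with 95% intervals of −0.16 to 0.13 and −0.20 to 0.09. It shares 14.8% of its exon bases with DDX55 on the opposite strand, which had 25.4 to 31.4 CPM. EIF2B1 and EIF2S1 were not called in any of the 3 comparisons, with or without the block.

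EIF2B5 encodes the epsilon subunit of eIF2B, which carries out the nucleotide exchange (ENSG00000145191, chromosome 3, 184135038 to 184146112, plus strand). It had 62.4, 55.4 and 58.4 CPM in scramble cells, 53.2, 50.4 and 52.1 CPM under sh76, and 59.1, 50.9 and 48.5 CPM under sh78. The sh76 libraries lay below the scramble libraries, while sh78 replicate 1 lay inside the scramble range. EIF2B5 had a log2 fold change of −0.18 with sh76 (95% interval −0.36 to 0.0024, adjusted p by edgeR 0.294), and the block called it (adjusted p by edgeR 0.0261). With sh78 it was −0.15 (95% interval −0.33 to 0.03, adjusted p by edgeR 0.4; 0.0626 with the block).

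The other genes of the pathway were taken from 5 lists of 44 genes, all of which were tested. Among all 17023 tested genes, 2959 had an unadjusted edgeR p under 0.05 with sh76, 2983 with sh78 and 2768 between the hairpins. Of the other subunits of eIF2 and eIF2B (EIF2S2, EIF2S3, EIF2B2, EIF2B3 and EIF2B4), 0 of 5 were called with sh76 by edgeR (1 at an unadjusted p under 0.05). With sh78, where 2.56% of all genes were called lower, 1 of the 5 was called lower. That gene was EIF2S2, the beta subunit of eIF2, which fell by 0.31 on the log2 scale (SE 0.06, adjusted p by edgeR 0.00687) from 291 ± 3.93 CPM in scramble cells to 234 ± 7.12 CPM under sh78 (SD, n = 3). Its sh76 value was −0.17 (adjusted p by edgeR 0.138). EIF2S3, the gamma subunit, had log2 fold changes of 0.19 and 0.22 (adjusted p by edgeR 0.292 and 0.209). With the block, EIF2S2 was called lower and EIF2S3 higher with each hairpin, and EIF2B2 lower with sh78. The block called 20.4% of all genes with sh76, 19.9% with sh78 and 18.3% between the hairpins. It called 8.29% with both hairpins in the same direction. Between the hairpins edgeR called 0 of the 5 (2 at an unadjusted p under 0.05), while EIF2S2 and EIF2B2 were called lower with sh78 under the block.

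Sensor partners and genes that handle eIF2 numbered 11, and 0 of them were called in any of the 3 comparisons. At an unadjusted edgeR p under 0.05 there were 3 with sh76, 0 with sh78 and 2 between the hairpins. Over all 17023 tested genes these counts were 2959, 2983 and 2768. The block called 4 higher with sh76 (CDC123, EIF2D, EIF2A and NCK1). With sh78 it called 2 higher (GCN1 and CDC123) and 1 lower (EIF5). Between the hairpins it called 3 lower with sh78, which were EIF5, EIF2A and EIF2D. Over all genes the block called 20.4% with sh76, 19.9% with sh78 and 18.3% between the hairpins, in either direction. HSPA5, the chaperone BiP that holds PERK inactive, had 794 to 902 CPM over the libraries and log2 fold changes of 0.01 and −0.08 (adjusted p by edgeR 0.951 and 0.481). It was named outside the fixed rule, after its values were seen, because it is the partner of EIF2AK3. CDC123, an assembly factor of eIF2, had the smallest adjusted p by edgeR with sh76 (0.16, log2 fold change 0.25). GCN1, the activator of GCN2, had log2 fold changes of 0.10 and 0.13 (adjusted p by edgeR 0.451 and 0.301). Its sh78 value was called only with the block (adjusted p by edgeR 0.0239).

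The PP1 catalytic subunits PPP1CA, PPP1CB and PPP1CC gave 0 calls by edgeR among 3 genes in each comparison. An unadjusted edgeR p under 0.05 was seen for 1 with sh76, 0 with sh78 and 1 between the hairpins. Over all 17023 tested genes these counts were 2959, 2983 and 2768. PPP1CA had log2 fold changes of −0.21 with sh76 and 0.001 with sh78 (adjusted p by edgeR 0.106 and 0.988), and with the block it was lower with sh76 than with scramble (adjusted p by edgeR 0.000408) and than with sh78 (adjusted p by edgeR 0.000371). Among 7 genes for inner membrane proteases and OMA1 substrates, 1 was called lower with sh76, against 2.16% of all genes. With sh78, 1 was called higher, as were 315 of the 17023 tested genes. YME1L1, a protease that acts beside OMA1 on OPA1, fell by 0.27 on the log2 scale with sh76 (adjusted p by edgeR 0.0304) and had −0.12 with sh78 (adjusted p by edgeR 0.372). AFG3L2, a subunit of the matrix-facing AAA protease, rose by a log2 fold change of 0.31 with sh78 (adjusted p by edgeR 0.0362) and had 0.23 with sh76 (adjusted p by edgeR 0.132). The block called YME1L1 lower and AFG3L2 higher with each hairpin, PHB2 lower with sh76 and SPG7 higher with sh78. Its share over all genes was 20.4% with sh76, 19.9% with sh78 and 18.3% between the hairpins. For both hairpins in the same direction it was 8.29%. Between the hairpins edgeR called 0 of the 7 (1 at an unadjusted p under 0.05), while YME1L1 was called higher with sh78 under the block.

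Genes downstream of eIF2 alpha phosphorylation were the fifth list, which is known from earlier results of these data to be lower and so is not independent evidence of its direction. Of its 18 genes, 13 were called lower and 0 higher with sh76, where 2.16% of all genes were called lower. With sh78, 12 were called lower and 0 higher, against 2.56% of all genes. The median log2 fold changes were −0.53 and −0.69. ATF4, the transcription factor that carries the response, fell by 0.27 with sh76 and by 0.37 with sh78 on the log2 scale (adjusted p by edgeR 0.0161 and 0.00189). DDIT3, which encodes CHOP, fell by 0.57 and by 0.98 (adjusted p by edgeR 0.0477 and 0.00211), SESN2, a stress-induced regulator of nutrient signalling, by 0.54 and by 0.82 (adjusted p by edgeR 0.00665 and 0.000294), and CEBPG, a partner of ATF4, by 0.36 and by 0.34 (adjusted p by edgeR 0.0158 and 0.0193). TRIB3, PSAT1 and MTHFD2 were among the 12 genes called lower with both, which 0.881% of all genes were, and the comparisons share the scramble libraries. None (0) of the 18 was called between the hairpins. There 2 had an unadjusted edgeR p under 0.05, as did 2768 of the 17023 tested genes. The replicate block raised the counts of lower genes to 16 for sh76 and 18 for sh78. Calls rose over all genes too, with 1828 and 1722 of the 17023 tested genes called lower with the block, and 1467 between the hairpins. Between the hairpins the block called 3 lower with sh78, which were DDIT3, SESN2 and DDIT4 (adjusted p by edgeR 0.0164, 0.016 and 0.0259).

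Over the 44 pathway genes together, DESeq2 called 15 with sh76, 15 with sh78 and 0 between the hairpins, where edgeR called 14, 14 and 0. Over all genes DESeq2 called 854, 976 and 850, where edgeR called 610, 750 and 629. The plot by list shows the members around 0 and the downstream genes below it in each comparison. PPP1R15A, itself a textbook gene of the same response, had log2 fold changes of −0.18 and −0.23. These lay nearer 0 than the medians of the downstream list, and that difference was not tested. Without sh76 replicate 2, the count of called genes over the 44 fell from 14 to 4 with sh76. In the same fit the count over all genes dropped from 610 to 237.

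**Figure D4:**
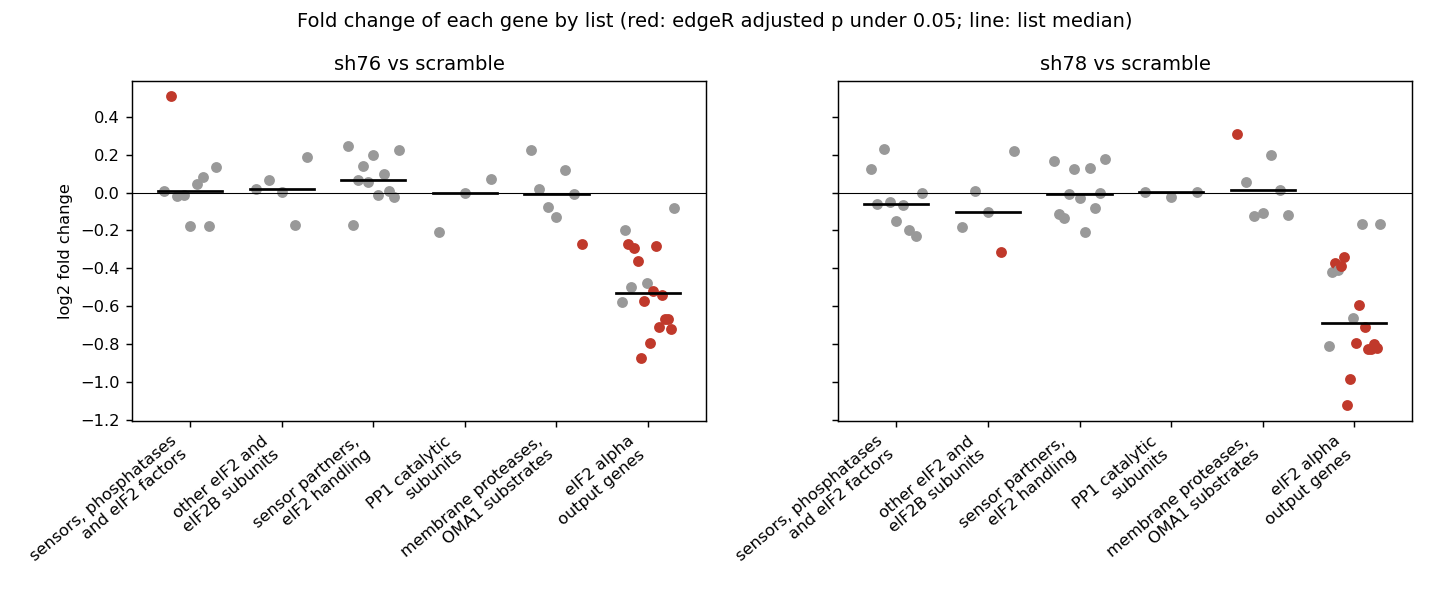
Log2 fold change of each gene against scramble by list, with sh76 on the left and sh78 on the right. Red points were called by edgeR and lines mark list medians, which are 0.01 and −0.06 for the sensors, phosphatases and eIF2 factors and −0.53 and −0.69 for the output genes.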

How the data were processed

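RNA-seq was read from 9 OVCAR3 libraries, 3 for each hairpin, grouped by the submitters' labels. The authors deposited raw counts per gene and FPKM values for 58735 genes. HISAT2 2.0.5, featureCounts 1.5.0-p3 and the build hg38 are named in the submitters' processing notes, and their settings are not given in the sources used here. Gene identifiers, names and ends all matched GENCODE 29, from which positions and overlaps were taken. The kit keeps no strand, per the labels' protocols, so reads of overlapping genes on opposite strands cannot be told apart.

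Low genes were removed by filterByExpr (at least 10 counts, total of at least 15), leaving 17023, and counts were scaled with TMM and tested with the quasi-likelihood test of edgeR 4.0.16 in R 4.3.3, 1 fit over all groups. P-values were adjusted by Benjamini-Hochberg over all tested genes, with calls made below 0.05. Standard errors are the log2 fold change over the root of F, and 95% intervals use the total degrees of freedom. The steps were tested on simulated data. FPKM was used to compare levels between genes, for the kinase shares and phosphatase ratios, and in the limma alternatives. Same-numbered libraries of different groups deviated together over genes (9 pairs, r 0.142 to 0.391, against −0.31 to 0.0639 in 18 other pairs), so the replicate block reads the numbers as pairing. The labels state no block, so the main fit has no replicate term. Its adjusted p-values and intervals leave this pairing out. No 2 replicates agreed within sampling noise.

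Alternatives were DESeq2 1.42.0, library totals without TMM, other filters, the replicate block, only the groups compared, limma 3.58.1 on log2(FPKM + 1) or log2(FPKM + 0.1), and leaving out each library. All 9 members are named. Of each pathway list, the text names up to 4 genes called with both hairpins and up to 2 more per comparison by adjusted p. Outside this rule, genes are named where a list is spelled out or for calls with the replicate block. HSPA5 and DELE1 are named as partners of members. Genes most like a member were the 3 with the highest r to EIF2AK3, the member with the largest mean change. The members and lists were chosen with earlier results of these data known. Promoter windows came from RefSeq (GRCh38.p14).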

Additional observations from a re-analysis of the deposited data

Results flagged for a closer look

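EIF2AK3 differed between the hairpins by a log2 fold change of −0.57 for sh78 against sh76 (95% interval −0.80 to −0.34, adjusted p by edgeR 0.00941). This was a direct test of the difference between hairpins that target the same gene, and all 3 same-numbered pairs had lower EIF2AK3 with sh78 (log2 ratios −0.74, −0.52 and −0.44). The log2 fold change of GPX3 itself in that comparison was −0.86 (adjusted p by edgeR 0.0194), and its part in the EIF2AK3 difference was not tested. The difference was called in all 9 fits that left out a library.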

How the results depend on the processing

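The EIF2AK3 difference between the hairpins was called under all 17 alternatives, and the sh76 call under 14 of 17, the exceptions being the 3 left-out libraries named with the result. With the replicate block, which reads replicate numbers as pairing, 3467, 3388 and 3117 genes were called for sh76, sh78 and sh78 against sh76, in place of 610, 750 and 629. Members called were then 3, 3 and 4, and pathway genes 26, 27 and 10 in place of 14, 14 and 0. Without a low-count filter 1149, 1212 and 1125 genes were called. With limma on log2(FPKM + 0.1), 9 pathway genes were called with sh76. The cause was not tested.

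Leaving out each library gave 237 to 655, 418 to 810 and 273 to 780 called genes, lowest without sh76 replicate 2, scramble replicate 2 and sh76 replicate 2. Members called ranged from 0 to 1 with sh76, and pathway genes from 4 to 14 with sh76 and 12 to 15 with sh78. PPP1R15B with sh78 turned to 0.0017 without TMM and 0.00033 without the filter. Signs also turned with a library left out for uncalled members. With sh76 the ranges were −0.035 to 0.041 (EIF2AK1), −0.086 to 0.023 (EIF2AK4), −0.0060 to 0.098 (EIF2S1), −0.041 to 0.022 (EIF2B1) and −0.057 to 0.17 (OMA1). With sh78 they were −0.10 to 0.016 (EIF2AK3) and −0.033 to 0.047 (PPP1R15B). Between hairpins they were −0.15 to 0.027 (PPP1R15A), −0.075 to 0.011 (EIF2B1) and −0.060 to 0.089 (EIF2B5). With 3 libraries in a group, the intervals are wide for low-count members such as OMA1.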
